A study of Saccharomyces cerevisiae with 18 samples.

Results

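Ty3 is a long terminal repeat (LTR) retrotransposon of budding yeast, and the 4 open reading frames (ORFs) described here are its genes at both full-length copies that the yeast reference genome holds: YGR109W-A and YGR109W-B at the copy YGRWTy3-1, and YIL082W and YIL082W-A at the copy YILWTy3-1. They were chosen by gene ID, 4 of the 7126 gene IDs in the deposited tables, and no measured value served as a criterion. Earlier results of these data were known when they were chosen. RNA was sequenced from haploid MATa yeast (strain yAA95) in 2 separate experiments, each with a mock-treated culture at 0 nM and 8 further doses of synthetic α-pheromone, all harvested after 60 min. Experiment 1 used 0, 1, 5, 10, 15, 20, 50, 100 and 500 nM, and experiment 2 used 0, 0.05, 0.25, 1, 5, 10, 20, 50 and 500 nM, which gave 18 libraries with 1 library per dose and experiment. All 18 share the genotype: deletions of BAR1 (the protease that degrades α-pheromone), of both α-pheromone genes and of ARG4, a sfGFP reporter under the FUS1 promoter at URA3, and, per the study's methods, a background without functional Kss1, a MAP kinase that acts beside Fus3. Since every culture came from this single strain, nothing here separates the response of Ty3 from these alleles.

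The libraries held 4870000 to 16660000 mapped reads, as recovered from the steps of the deposited RPKM values, which are read counts scaled to gene length and to the mapped reads of the library. The markers of the labelled cell type were present: STE2, the a-cell receptor gene, lay between 452 and 1196 RPKM and MFA1, an a-factor gene, between 166 and 1277 RPKM, while STE3, the receptor gene of α cells, stayed at 1.17 to 4.20 RPKM. Transcripts of the deleted BAR1 reached at most 0.288 RPKM. KSS1 reads were present at 21.8 to 33.5 RPKM, which bears on its transcript and not on its protein.

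Ty3 replicates through an RNA that starts in the left LTR and ends in the right one. Its first ORF encodes Gag, the structural protein of the virus-like particle, and a ribosomal frameshift extends translation into pol, which encodes the protease, reverse transcriptase and integrase. The LTR carries pheromone response elements, the binding sites of Ste12, the transcription factor that Fus3 activates in mating cells, and Ty3 is known to be transcribed and to assemble particles in cells exposed to pheromone. New copies are inserted next to the start sites of tRNA genes.

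In the reference genome (R64, equal to sacCer3), YGRWTy3-1 spans chrVII:707195-712545 and YILWTy3-1 spans chrIX:205220-210647, both on the plus strand. The gag ORF YGR109W-A (TY3A-G in the files) covers chrVII:707610-708482, and the gag-pol ORF YGR109W-B (TY3B-G) starts at the same base and runs to chrVII:712254. YIL082W-A (TY3B-I) covers chrIX:205635-210132. The gag ORF YIL082W (TY3A-I) has no entry in the RefSeq annotation used here, but its reads came out whole at a length of 873 bases, that of the gag ORF. Each gag ORF lies inside the gag-pol ORF of its copy, so its reads were taken as counted in both, and the 4 ORFs are not independent measurements. All 4 LTRs of the elements were identical over 340 bases and held the pheromone response element TGAAACA a single time on the LTR strand, at base 68. The first 100 bases of the left LTR, chrVII:707195-707294 and chrIX:205220-205319, are shown with this element in capitals because elements of this kind are known as binding sites of Ste12.
YGRWTy3-1 and YILWTy3-1: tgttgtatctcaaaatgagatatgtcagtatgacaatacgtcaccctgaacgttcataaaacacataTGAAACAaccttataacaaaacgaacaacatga

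TGAAACA was searched on both strands, where its reverse complement does not overlap it. It was present in 31 of the 31 Ty3 LTRs of 300 bases or more, most of them solo LTRs left without an internal part. Of 6001 windows of 340 bases placed as far from the coding start of other genes as the LTR is from gag, 8.5% held it. A match is a description of the letters and not evidence of binding.

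The copies differed little in sequence, as the map of the elements shows. They agreed at 99.29% of aligned bases, with 38 substitutions, of which 8 fell in gag, 30 in the pol part and 0 in the LTRs. YGRWTy3-1 lacked 78 bases of pol, and YILWTy3-1 lacked 1 base, 96 bases before the end of YIL082W-A. The latter place is shown with the base missing from YILWTy3-1 in capitals, because the missing base shifts the reading frame and YIL082W-A ends earlier (chrVII:711919-711949 and chrIX:210022-210051).
YGRWTy3-1: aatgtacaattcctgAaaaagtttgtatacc
YILWTy3-1: aatgtacaattcctgaaaagtttgtatacc

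Reads were 50 bases long. Of all 50-base windows, 38.3% in either gag ORF, 35.0% in YGR109W-B and 36.4% in YIL082W-A occurred a single time in the reference genome, so most reads of either copy would match the other copy as well. How the counting treated such reads is not given in the sources used here. The strain derives from SEY6210a and not from the reference strain, and the number and the sites of its Ty3 copies were not analysed here. A read assigned to either copy therefore cannot be placed with certainty, and each value below is that of the ORF as the files list it.

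**Figure D1:**
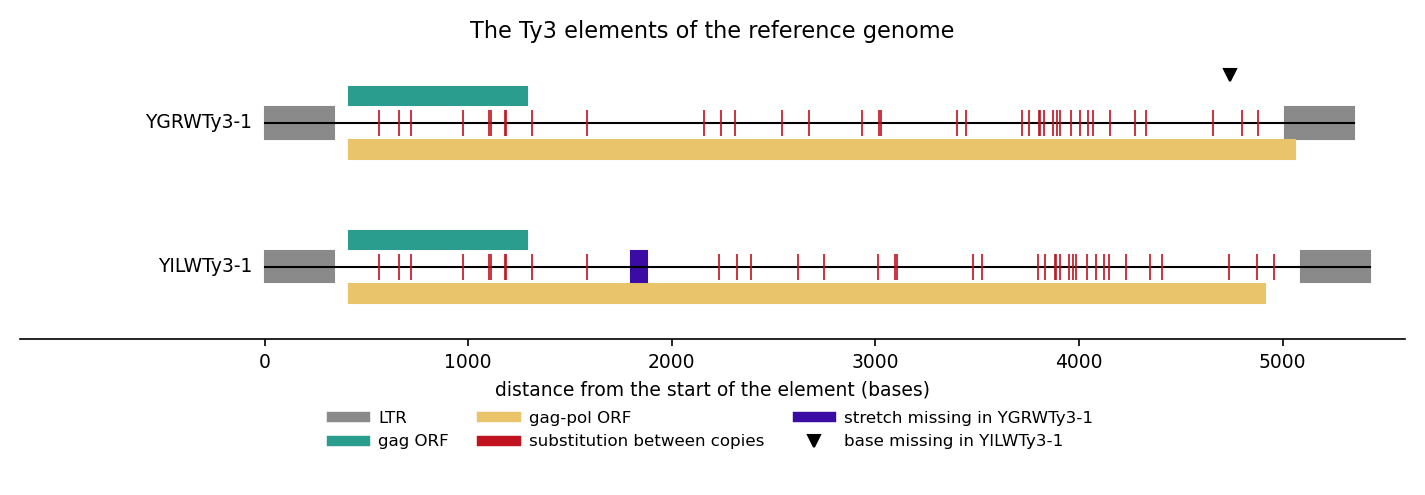
The Ty3 elements of the reference genome, drawn to scale by distance from the start of each element in bases, with LTRs in grey, the gag ORF above and the gag-pol ORF below the line. Red lines are the 38 substitutions between the copies, the purple block is the stretch of 78 bases missing in YGRWTy3-1, and the triangle is the base missing in YILWTy3-1; most substitutions lie in pol and none in an LTR.

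Pheromone raised all 4 Ty3 ORFs, from among the weakly expressed genes to among the strongly expressed ones. In experiment 1, YGR109W-A (gag) was at 4.99, 15.3, 35.5, 60.0, 159, 118, 304, 305 and 400 RPKM at 0, 1, 5, 10, 15, 20, 50, 100 and 500 nM. In experiment 2 it was at 1.46, 2.14, 3.19, 5.63, 8.19, 31.1, 70.3, 130 and 127 RPKM at 0, 0.05, 0.25, 1, 5, 10, 20, 50 and 500 nM. The 500 nM library was thus 80.1-fold above the mock library in experiment 1 and 87.3-fold in experiment 2. YIL082W, the other gag ORF, stood at 13.1, 51.2, 81.6, 152, 371, 280, 565, 546 and 707 RPKM over the doses of experiment 1. Over those of experiment 2 it stood at 3.20, 5.51, 7.90, 19.1, 18.7, 73.8, 166, 239 and 231 RPKM. It was the highest of the 4 ORFs in every library, and its gain at 500 nM was 54.1-fold and 72.2-fold.

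The gag-pol ORFs followed the same course at lower RPKM than YIL082W. YGR109W-B read 6.87, 18.4, 30.7, 61.7, 180, 123, 298, 294 and 418 RPKM in experiment 1, and 1.13, 1.54, 2.28, 5.52, 5.00, 18.6, 51.7, 89.2 and 82.3 RPKM in experiment 2. YIL082W-A read 8.09, 29.6, 42.5, 86.5, 233, 165, 333, 333 and 463 RPKM in experiment 1, and 1.49, 2.23, 3.18, 8.33, 7.03, 28.7, 74.0, 107 and 94.2 RPKM in experiment 2. In both ORFs the 1 nM library of experiment 2 lay slightly above the 5 nM library, and the 50 nM library above the 500 nM library. In experiment 1 all 4 ORFs were 1.32 to 1.46 times as high at 15 nM as at 20 nM. Of the 27 mating genes that were called higher, 25 also had more RPKM at 15 nM than at 20 nM, with a median ratio of 1.07. The share over all genes was not counted for these 2 single libraries. Whether the order is particular to genes that respond to pheromone was therefore not tested.

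**Figure D2:**
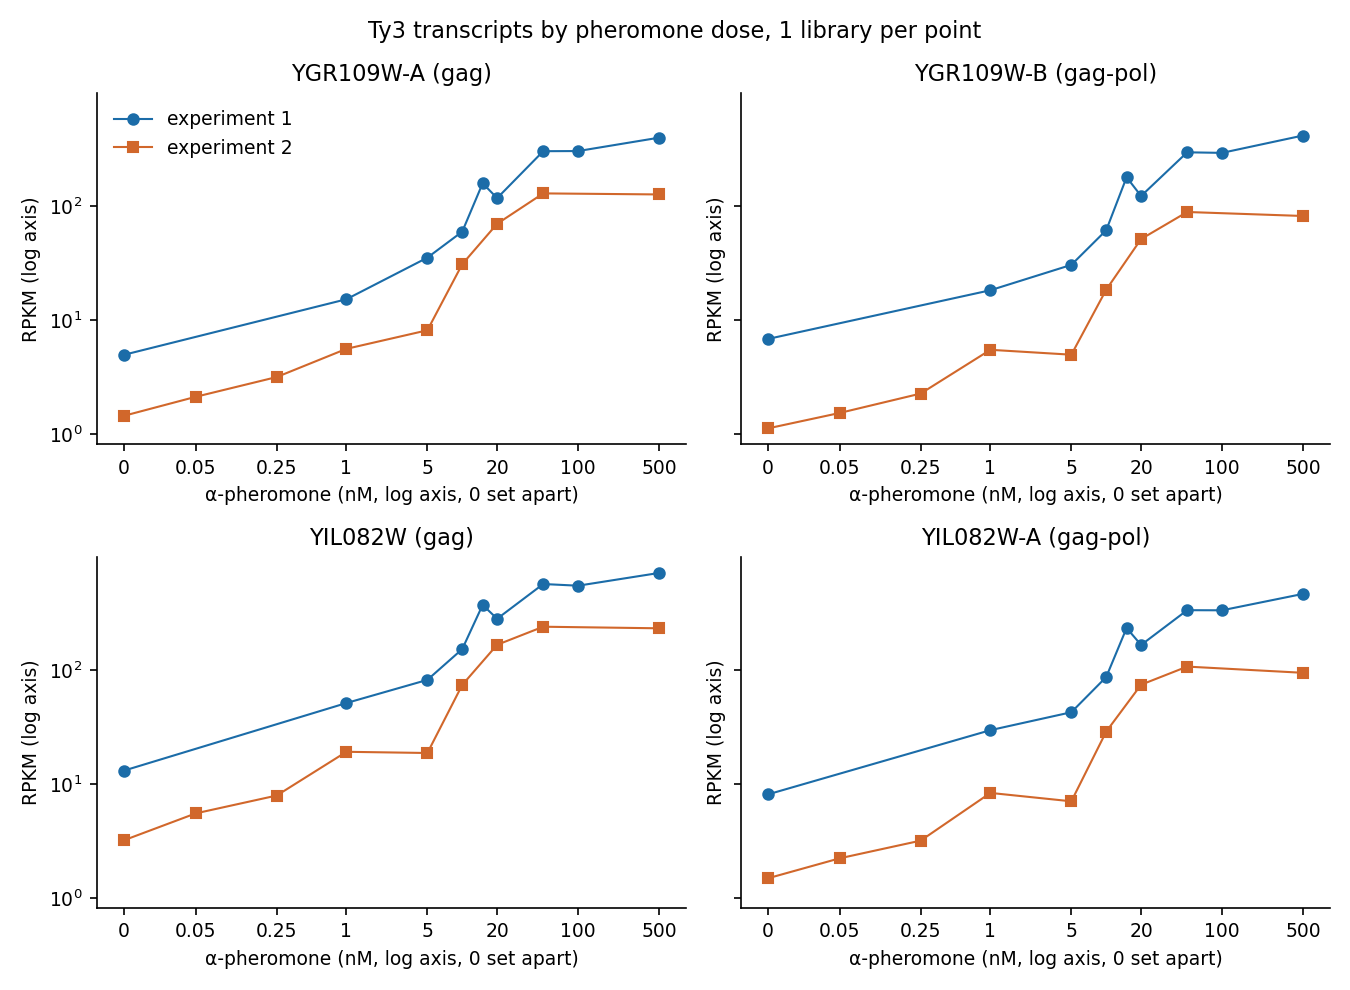
RPKM of the 4 Ty3 ORFs (log axis) against the dose of α-pheromone in nM (log axis, 0 nM set apart), 1 point per library, experiment 1 as circles and experiment 2 as squares. Every ORF climbs from 1.13 to 13.1 RPKM at 0 nM to 82.3 to 707 RPKM at 500 nM, and experiment 1 lies above experiment 2 at each shared dose.

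High doses (20 nM and above, 7 libraries) were compared with low doses (0.25 nM and under, 4 libraries) by limma, with log2(RPKM + 1) as the measure and a block for each experiment, and a gene was called at a Benjamini-Hochberg adjusted p under 0.05 and a change of at least 2-fold. All 4 Ty3 ORFs were called higher, where 2.28% of the 6002 genes tested were called higher. On that log2 scale YGR109W-A rose by 5.19 (SE 0.33, adjusted p 1.10e-06), from 2.94 ± 1.54 to 208 ± 126 RPKM (mean ± SD). YGR109W-B rose by 4.89 (SE 0.31, adjusted p 9.59e-07), from 2.96 ± 2.65 to 194 ± 141 RPKM. YIL082W rose by 5.10 (SE 0.27, adjusted p 2.89e-07), from 7.42 ± 4.23 to 391 ± 211 RPKM, and YIL082W-A by 4.91 (SE 0.26, adjusted p 2.89e-07), from 3.74 ± 2.98 to 224 ± 151 RPKM. By size of change they ranked 14, 21, 15 and 19 among the genes tested, in this order. The changes were 5.05 to 5.43 in experiment 1 alone and 4.81 to 5.07 in experiment 2 alone, and the test of the difference between experiments called none of them (limma, adjusted p 1 for each).

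Ty3 RNA was present before stimulation. In the mock library of experiment 1 the 4 ORFs had 42 to 351 reads and 4.99 to 13.1 RPKM, above 9.0% to 18.7% of the genes tested. In that of experiment 2 they had 15 to 79 reads and 1.13 to 3.20 RPKM, above 1.4% to 6.1% of the genes. At 500 nM they exceeded 94.5% to 96.7% of the genes in experiment 1 and 78.1% to 91.2% in experiment 2. Doses under 1 nM were used in experiment 2 alone, and in all 4 ORFs the values increased in the order 0, 0.05 and 0.25 nM. The exact Poisson 95% intervals at 0 and 0.25 nM did not overlap for YGR109W-B (0.867 to 1.45 against 1.86 to 2.77 RPKM), YIL082W (2.21 to 4.50 against 6.13 to 10.0 RPKM) and YIL082W-A (1.18 to 1.85 against 2.67 to 3.75 RPKM). For YGR109W-A they did (0.815 to 2.40 against 2.10 to 4.64 RPKM). These intervals cover counting error only, and with a single library per dose the difference between cultures has no replicate check.

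The dose at which the rise began was taken from a limma fit of all 18 libraries with a term for each dose, in which the doses share the 0 nM libraries as controls. All 4 ORFs were called higher at 1 nM, the lowest dose used in both experiments, where 0.267% of 5995 genes (16 genes) were called higher. They were also called at 5, 10, 20, 50 and 500 nM, where 0.601%, 1.55%, 1.77%, 2.2% and 5.42% of genes were. YIL082W gained 2.07 (SE 0.25, adjusted p 0.0118) and YIL082W-A 1.83 (SE 0.25, adjusted p 0.0216) on the log2 scale. YGR109W-A gained 1.44 (SE 0.24, adjusted p 0.0401) and YGR109W-B 1.46 (SE 0.24, adjusted p 0.0394). In RPKM this was 2.67-fold to 3.91-fold in experiment 1 and 3.87-fold to 5.97-fold in experiment 2. The other 12 called at 1 nM were the cell adhesion genes AGA1, AGA2 and FIG2, the membrane protein genes FIG1, PRM1, PRM2 and PRM6, the small nucleolar RNA genes snR189, snR49 and snR4, the tRNA gene tR(UCU)G3, and YIL080W, whose values follow those of YIL082W-A. STE2 gained 0.49 (SE 0.08, adjusted p 0.0383), under 2-fold, and FUS1 1.24 (SE 0.26, adjusted p 0.081). The call at 1 nM rested on removing the difference between experiments: without the block the lowest dose called was 10 nM for the gag ORFs and 20 nM for the gag-pol ORFs. It also moved to 5 nM for 3 of the 4 ORFs in each of 2 other settings: for YGR109W-A, YGR109W-B and YIL082W with limma-voom on recovered reads, and for YGR109W-A, YGR109W-B and YIL082W-A with a pseudocount of 5.

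Above 1 nM the rise went on in steps, which were compared after the values had been seen. From 1 to 5 nM none of the 4 ORFs was called by limma (changes 0.15 to 0.82, adjusted p 0.142 to 0.814, with an unadjusted p under 0.05 for YGR109W-A alone), where 0.05% of genes were called higher. From 5 to 10 nM all 4 were called, with changes of 1.27 to 1.45 (adjusted p 0.0284 to 0.0353), against 0.4% of genes. From 10 to 20 nM YGR109W-A, YGR109W-B and YIL082W-A were called (1.06 to 1.21, adjusted p 0.0296 to 0.0492, against 0.117% of genes), and YIL082W changed by 1.02 (adjusted p 0.0679). From 20 to 50 nM YGR109W-A (1.12, adjusted p 0.0251) and YGR109W-B (1.02, adjusted p 0.0338) were called, against 0.35% of genes, and both YIL ORFs changed by 0.77 (adjusted p 0.0988 and 0.0996). From 50 to 500 nM the changes were 0.14 to 0.19 (adjusted p 0.6 to 0.717) and none was called or reached an unadjusted p of 0.05, where 1.57% of genes were called higher. At 500 nM the change over 0 nM came to 5.88 for YGR109W-A, 5.51 for YGR109W-B, 5.72 for YIL082W and 5.47 for YIL082W-A (SE 0.24 to 0.25).

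**Figure D3:**
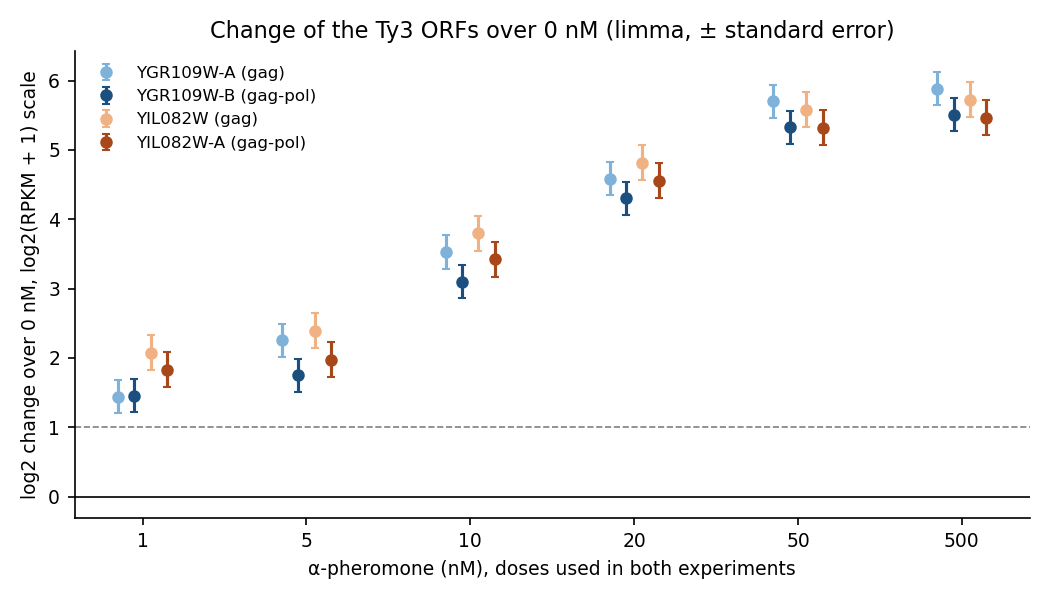
Change of each Ty3 ORF over 0 nM on the log2(RPKM + 1) scale at the 6 shared doses, as points with the standard error of the limma fit over both experiments; the dashed line marks a change of 2-fold. The ORFs lie at 1.44 to 2.07 at 1 nM, go up in the range from 5 to 50 nM, and lie at 5.47 to 5.88 at 500 nM.

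A Hill curve fitted to RPKM as a share of the highest RPKM in each experiment gave the EC50, with no test. The EC50 is here the dose of half-maximal rise above the basal level, and not that of half-maximal RPKM. STE2, for one, already had 53.9% and 62.3% of its highest RPKM at 1 nM, below its EC50. The EC50 was 22.5 nM for YGR109W-A, 22.8 nM for YGR109W-B, 17.9 nM for YIL082W and 19.6 nM for YIL082W-A. Fitted alone, experiment 1 gave 22.7 to 31.6 nM and experiment 2 gave 14.6 to 17.99 nM, so the experiments did not overlap. For comparison the same fit gave 6.42 nM for STE2, 7.87 nM for FUS3, 11.2 nM for the fusion gene FUS1 and 29.0 nM for MSG5, which encodes a phosphatase of Fus3. The early call at 1 nM and the EC50 near 20 nM belong to different scales: at 10 nM the ORFs had 14.8% to 30.9% of their highest RPKM, while FUS1 had 50.7% and 43.3%, and STE2, which was already at 39.5% and 42.7% at 0 nM, had 79.7% and 91.3%. At 0 nM the Ty3 ORFs had 1.12% to 1.85% of their highest RPKM. On a log2(RPKM + 1) scale from lowest to highest value, the EC50 of the Ty3 ORFs was 4.43 to 8.98 nM.

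Experiment 1 was higher than experiment 2 at all 7 shared doses in each ORF. The ratio was 1.68 to 4.33 for YGR109W-A, 2.38 to 6.13 for YGR109W-B, 1.69 to 4.38 for YIL082W and 2.23 to 6.04 for YIL082W-A. In the limma fit over shared doses the log2 difference was 1.30 and 1.40 for the gag ORFs (adjusted p 1.07e-04 and 1.03e-04) and 1.83 and 1.81 for the gag-pol ORFs (adjusted p 2.87e-05 and 3.26e-05), where 0.417% of 5989 genes were called higher in experiment 1. The difference was not found in Ty3 alone. FUS1 had a ratio of 1.11 to 2.85 between the same libraries (log2 difference 0.50, adjusted p 0.0189), FUS3 of 1.06 to 1.91 (0.30, adjusted p 0.025) and MSG5 of 1.01 to 1.21 (0.11, adjusted p 0.0311), all under the 2-fold needed for a call, and STE2 of 0.909 to 1.17 (0.01, adjusted p 0.856). The doses stood in for replicates in that fit, so its p-values describe these 2 experiments only. The experiments were separate cultures with separate tables, and culture, library preparation and table cannot be told apart.

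YIL082W was higher than YGR109W-A in all 18 libraries, and YIL082W-A higher than YGR109W-B in all 18. The log2 ratio of the YGR to the YIL copy, on RPKM + 1, was -1.12 ± 0.26 (SD) for the gag ORFs and -0.36 ± 0.16 for the gag-pol ORFs. Each gave p = 2e-05 in a two-sided sign-flip permutation test, the smallest that 100000 resamples can give. The libraries are different doses of the same strain and not replicates, so these p-values describe these 18 libraries only. The change of this ratio from low to high doses was 0.07 for gag (p = 0.56) and 0.01 for gag-pol (p = 0.88, exact permutation within experiments, two-sided). The gag change depended on the pseudocount, being 0.30 at 0.1 and -0.34 at 5 (exact permutation p = 0.03 for both), so no direction is given. The reads that the copies share limit every statement on their ratio, and their part in it was not tested.

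A finer pattern was noticed after the values had been seen and is given without a test. In RPKM with no pseudocount, YIL082W was 2.20 to 3.40 times YGR109W-A in the 13 libraries under 50 nM and 1.77 to 1.86 times in the 5 libraries at 50 nM and above, with no overlap. The highest ratios were those at 1 nM in both experiments, 3.34 and 3.40. For the gag-pol ORFs the ranges were 1.18 to 1.61 under 50 nM and 1.11 to 1.20 from 50 nM, which overlapped slightly.

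**Figure D4:**
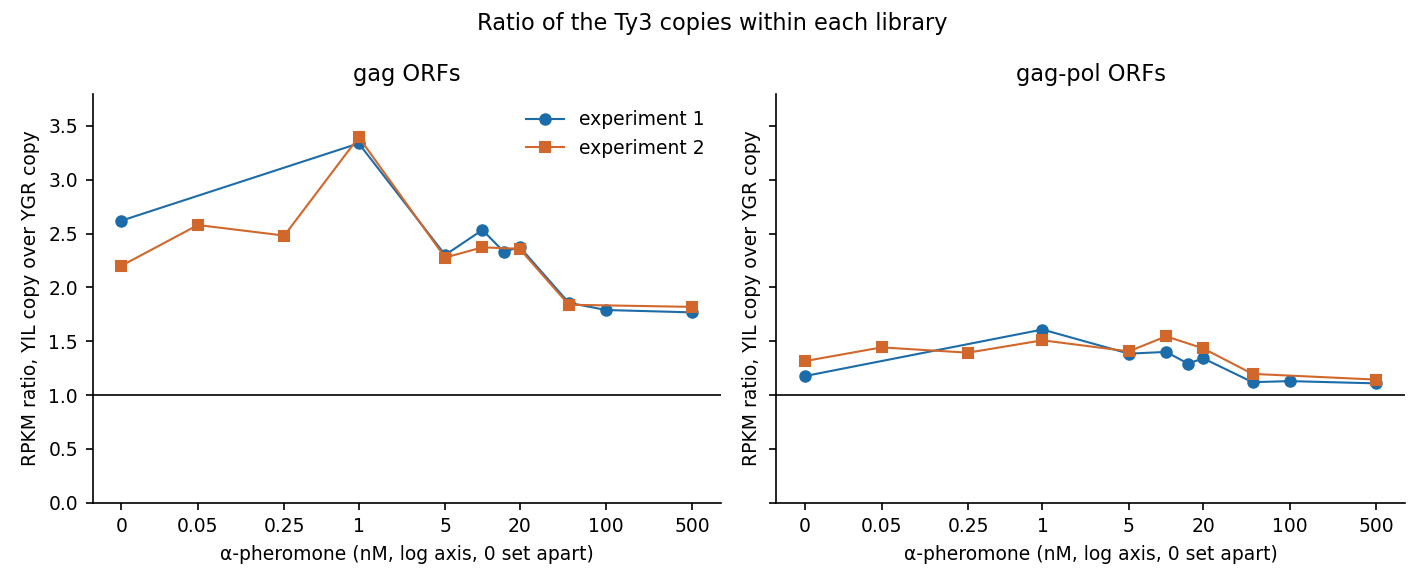
RPKM of the YIL copy over that of the YGR copy within each library, against the dose of α-pheromone in nM (log axis, 0 nM set apart), for the gag ORFs on the left and the gag-pol ORFs on the right, 1 point per library. All points lie above 1, and the gag ratio is 1.77 to 1.86 from 50 nM against 2.20 to 3.40 at lower doses.

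Within each copy, gag reads were compared with reads of the pol part per base, after gag reads were subtracted from those of the gag-pol ORF. The subtraction assumes that gag reads were counted in both ORFs, which the sources used here do not state. YGRWTy3-1 had a log2 ratio of gag to pol of -0.10 ± 0.24 (SD) in the libraries of experiment 1 and 0.64 ± 0.29 in those of experiment 2. YILWTy3-1 had 1.01 ± 0.14 and 1.85 ± 0.19, so gag exceeded pol in this copy in both experiments. The ratio was higher in experiment 2 at 7 of 7 shared doses, by 0.76 ± 0.24 for YGRWTy3-1 and 0.78 ± 0.18 for YILWTy3-1 (exact sign-flip permutation test, two-sided, p = 0.0156 for each, the smallest that 7 doses allow). The doses are not replicates of an experiment, so this p-value describes these 2 experiments only. The copies share reads and do not give 2 separate tests. Between high and low doses it differed by 0.01 for YGRWTy3-1 (p = 1) and -0.30 for YILWTy3-1 (p = 0.39, exact permutation within experiments).

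**Figure D5:**
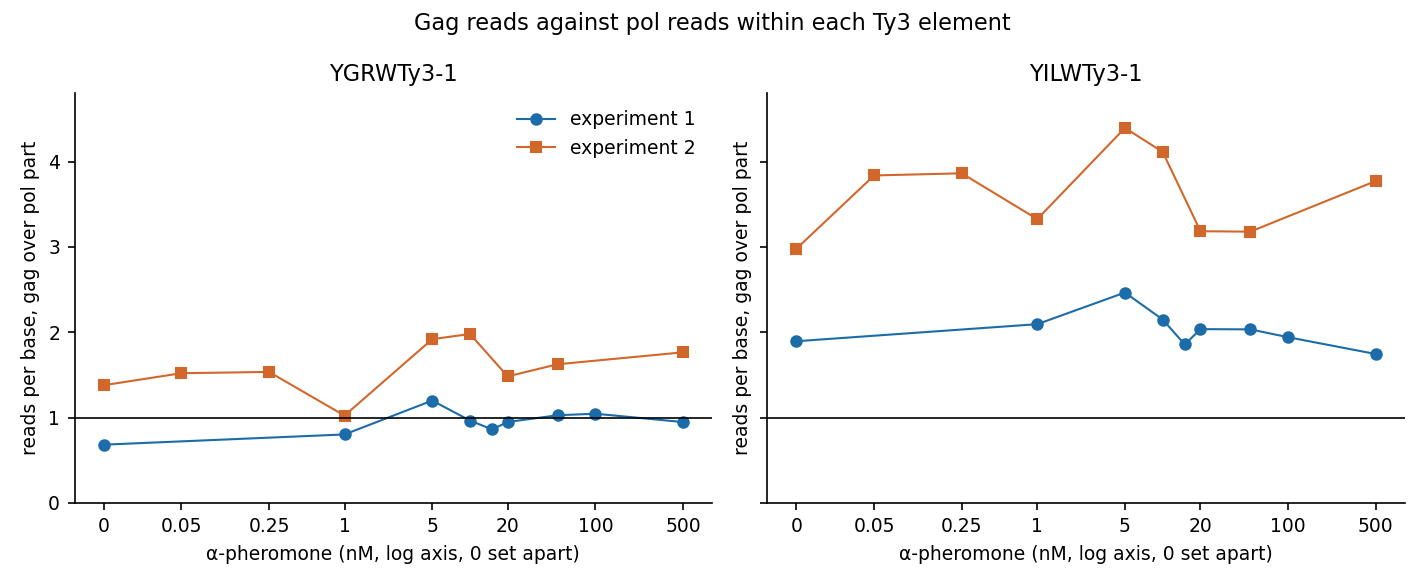
Reads per base in gag over reads per base in the pol part, against the dose of α-pheromone in nM (log axis, 0 nM set apart), for YGRWTy3-1 on the left and YILWTy3-1 on the right, 1 point per library. Experiment 2 (squares, 1.02 to 1.98 and 2.98 to 4.40) lies above experiment 1 (circles, 0.682 to 1.20 and 1.75 to 2.47) at every shared dose.

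Genes with a pattern like that of the gag-pol ORFs were sought by Pearson's r over the 18 libraries, on log2(RPKM + 1) centred within each experiment. The other Ty3 ORFs had r of 0.992 to 0.997 with YGR109W-B and 0.995 to 0.998 with YIL082W-A. With these ORFs and YIL080W left out, the genes most alike were listed for each gag-pol ORF. For YGR109W-B they were FKS3, ASG7, FIG2, PRM8 and AMN1 (r from 0.994 down to 0.991), and for YIL082W-A they were FIG2, ASG7, PRM3, FKS3 and YDR261W-B (r from 0.996 down to 0.990). ASG7 encodes an a-specific regulator of pheromone signalling, FIG2 a cell wall adhesin of mating cells, PRM3 a protein of nuclear fusion and FKS3 a relative of the glucan synthases. YDR261W-B is a Ty2 ORF. The points share libraries and doses, and many pheromone-regulated genes climb with dose. The ID YIL080W, which is not among the Ty3 ORFs here and has no entry in the annotation, ran at 0.952 to 1.01 times the RPKM of YIL082W-A in all 18 libraries.

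Ty3 LTRs, solo or part of an element, lie beside tRNA genes and other genes. The genes with an end within 500 bases of a Ty3 LTR were therefore read out as well. Of 37 other genes 29 were tested, of which 5 were called higher and 2 lower in high against low doses, where 2.28% and 4.4% of all genes were (median log2 change 0.04, against -0.10 over all genes tested). Of the 5 called higher, 3 are ORFs of other Ty elements (YJL114W of Ty4, YNL284C-A and YNL284C-B of Ty1) that lie 400 to 421 bases from the LTR and are counted again with their families. Of 37 tRNA genes, 11 could be matched to an ID and 5 were tested, of which 2 were called higher. Of these 34 genes the 3 with the largest changes were the 3 that start 17 to 36 bases downstream of a full-length LTR on the same strand, an arrangement that was noticed after the values had been seen. This set is a selected one. tA(AGC)H averaged 0.651 RPKM at low doses, so it passed the filter of 1 RPKM through its high doses. Other tRNA genes in this arrangement had no matched ID and no value, such as YNCL0007W, 17 bases after an LTR of 340 bases. TGAAACA was not particular to the LTRs of the 3 genes. It was also present in LTRs beside genes called lower (YGR123C and YHR020W) and beside genes not called, such as tC(GCA)G and YPR118W. The LTRs before the 3 genes with the largest changes held TGAAACA at base 68 within the same 39 bases as both elements, and the stretch is shown for that reason (chrVIII:146582-146620 on the minus strand, chrXIV:546789-546827, chrXVI:856596-856634 and, in the left LTRs of the elements, chrVII:707246-707284 and chrIX:205271-205309).
LTRs before tA(AGC)H, YNL042W-B and tA(AGC)P: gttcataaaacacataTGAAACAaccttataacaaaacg

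YNL042W-B, a small ORF 36 bases after its LTR, was at 1.61, 8.77, 29.7, 38.6, 118, 105, 276, 301 and 368 RPKM over the doses of experiment 1 and at 6.26, 4.58, 5.20, 11.8, 16.1, 50.8, 117, 216 and 316 RPKM over those of experiment 2. It rose by 5.52 on the log2 scale (SE 0.42, adjusted p 3.41e-06), and its 15 nM library, too, lay above the 20 nM library. The alanine tRNA gene tA(AGC)H was at 0 to 1.43 RPKM up to 0.25 nM and at 28.4 to 221 RPKM from 20 nM (log2 change 6.30, SE 0.55, adjusted p 1.02e-05), and tA(AGC)P at 0 to 3.53 and 10.6 to 104 RPKM (4.04, SE 0.65, adjusted p 8.50e-04). Both tRNA genes begin 17 bases after their LTR. Both had 0 RPKM at 0.05 nM, so their changes start at or near the floor of the counts and the size of these changes is uncertain. The other 31 genes tested beside LTRs changed by -1.56 to 1.82, among them YDR282C, which lies 34 bases after an LTR on the opposite strand (-0.55). Reads of tRNA genes of 1 family can be shared, and whether the reads came from the tRNA or from an RNA running out of the LTR was not tested.

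The nearest annotated genes of the elements moved less than Ty3. CAB2, a gene of coenzyme A synthesis on the minus strand 567 bases before YILWTy3-1, rose from 54.4 ± 3.33 to 150 ± 38.8 RPKM (log2 change 1.37, SE 0.21, adjusted p 6.07e-04). CLD1, a cardiolipin phospholipase gene 1164 bases after YGRWTy3-1, went from 2.20 ± 0.46 to 5.28 ± 3.72 RPKM and was not called (0.71, adjusted p 0.226). The cysteine tRNA gene tC(GCA)G, 16 bases before YGRWTy3-1 on the opposite strand, had 1.93 ± 2.24 and 1.26 ± 1.42 RPKM (-0.27, adjusted p 0.769). The tRNA gene 18 bases after YILWTy3-1 could not be matched to an ID.

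The other Ty families were called in part, and their difference from Ty3 was not tested. Of all 6002 genes tested, 2.28% were called higher, and the median log2 change was -0.10. Of 61 Ty1 ORFs 14 were tested, and 2 were called higher (median log2 change 0.32). Of 20 Ty2 ORFs 12 were tested, and 7 were called higher (median 1.07). Of 5 Ty4 ORFs 2 were tested, and both were called higher (median 1.66). The filter of 1 RPKM included the high doses, so these counts are not free of it. YOR343W-A of Ty2 and YJL114W of Ty4, both called, averaged 0.738 and 0.735 RPKM at low doses and passed through their high doses. Among the Ty2 ORFs, YDR261W-A went from 10.7 ± 1.53 to 51.6 ± 12.2 RPKM (log2 change 1.98, adjusted p 2.89e-07). Ty families have many near-identical copies, so their reads are uncertain too. Of 29 mating genes with a known Ste12-dependent response, 27 were called higher (median 2.48), and 7 were called at 1 nM, where 0.267% of genes were. PRM3, FIG1 and PRM6 changed by 7.48, 6.91 and 6.19, more than any Ty3 ORF. Of the 9 genes for TFIIIB and TFIIIC, the RNA polymerase III factors that Ty3 integration uses, 0 were called in either direction by limma, since no change reached 2-fold, and 7 were lower at an unadjusted p under 0.05, as were 2039 of all 6002 genes tested (median -0.34, with TFC1 at -0.80 and TFC3 at -0.57). Of 8 genes for P-body and RNA decay proteins linked to Ty3 particle assembly and RNA turnover, among them DCP1 (-0.48), DBR1 (-0.41) and DHH1 (0.25), 0 were called by limma, and at an unadjusted p under 0.05 there were 1 higher and 5 lower, against 808 higher and 2039 lower of all 6002 genes (median -0.17, against -0.10 over all genes).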

How the data were processed

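RNA from 18 cultures was depleted of ribosomal RNA, reverse-transcribed with random hexamers and sequenced as directional 50-base reads. The deposited values are RPKM, which the authors computed per gene from reads aligned to sacCer3. The submitters' processing notes name Bowtie 0.12.2, while the study's methods name Bowtie 2, and how reads with several matches were counted is not given in the sources used here. The 2 tables list 7126 gene IDs, of which 151 appear more than once with identical values and 6048 matched R64. Low values were whole multiples of 1 read: 99.36% to 99.79% of values of up to 100 reads came out whole within 0.05, which gave the totals of 4870000 to 16660000 mapped reads.

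Genes that averaged 1 RPKM or more over the libraries of a fit were tested with limma 3.58.1 (R 4.3.3, trended prior) on log2(RPKM + 1), with p-values adjusted by Benjamini-Hochberg over all genes tested. A fold change on this scale understates that of low genes. The experiment was a block, since each had its own mock culture and its own table, and the replicate number in the labels is that of the experiment. With the block, the spread behind a p-value is that left after the mean difference between the experiments is removed, which in the high against low comparison includes the spread between doses of 1 group. Permutations within experiments had 100 arrangements, so p could not go below 0.01. Reads were recovered per ORF for gag and pol, and Hill curves were fitted with scipy 1.17.1. The scripts were tested on simulated data. The ORFs and gene lists were chosen with earlier results of these data known. The text names the 4 ORFs, the neighbours of their elements, FUS1, STE2, FUS3 and MSG5, and at most 4 members of a list. It also names the 5 genes most like each gag-pol ORF, with Ty3 ORFs and YIL080W left out. Genes called at 1 nM, the genes compared by their place beside LTRs, YIL080W, the steps between doses, the copy ratio around 50 nM and the order of 15 and 20 nM were added after values had been seen. Alternatives were other pseudocounts, filters and scalings, limma-voom on recovered reads, each experiment alone, no block, and leaving out each library. Promoter motifs were searched in RefSeq R64.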

Additional observations from a re-analysis of the deposited data

Results flagged for a closer look

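A single value of the 16 groups examined stood far from the others of its group. Chance gives about 1 in 20 groups, or 0.8 among the 16, so 1 such value is about what chance gives. In the mock library of experiment 1 the log2 ratio of gag to pol reads per base in YGRWTy3-1 was -0.55, while the 3 low-dose libraries of experiment 2 lay at 0.46, 0.60 and 0.62. The gap was 0.868 of the range of the 4 libraries. It is the only low-dose library of experiment 1, so its place cannot be told apart from the difference between experiments, and it rests on 42 gag reads.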

How the results depend on the processing

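The rise of the 4 ORFs from low to high doses kept its direction and its call under all 13 alternatives, with log2 changes of 3.87 to 5.62, and when any 1 of the 11 libraries was left out (4.81 to 5.38). The lowest dose called did not hold as well. With a pseudocount of 5 it was 5 nM for YGR109W-A, YGR109W-B and YIL082W-A. With limma-voom on recovered reads it was 5 nM for YGR109W-A, YGR109W-B and YIL082W. With no replicate block it was 10 nM for YGR109W-A and YIL082W and 20 nM for YGR109W-B and YIL082W-A; without the pairing by experiment the high against low calls of the 4 ORFs held, and the steps between doses were not run without it. On the log2 scale the EC50 was 7.23 nM for YGR109W-A, 8.98 nM for YGR109W-B, 4.43 nM for YIL082W and 6.36 nM for YIL082W-A. The change of the gag copy ratio was 0.30 with a pseudocount of 0.1 and -0.34 with one of 5 (exact permutation p = 0.03 each), against 0.07. The lower level of the YGR copy held under all 4 alternatives (-1.20 to -0.96 for gag, -0.40 to -0.29 for gag-pol). Over all genes, 137 were called higher and 264 lower, against 51 and 50 in experiment 1 alone and 152 lower with a pseudocount of 5; the smaller fit holds fewer libraries, and the cause was otherwise not tested. The 15 to 351 reads per ORF in mock libraries limit the basal levels, and shared reads limit the comparison of copies.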
